A study of Mus musculus with 23 samples.

Results

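The 4E-binding proteins Eif4ebp1, Eif4ebp2 and Eif4ebp3, their target Eif4e, and the upstream inhibitors Ddit4, Sesn1, Sesn2 and Sesn3 are 8 of the 24475 genes in a table of mouse liver transcripts. The set was chosen from these same data because Eif4ebp3 was higher under antibody blockade of the glucagon receptor (GCGR), and the other genes were added as its relatives in the same pathway. All 8 were found by symbol, and all 8 passed the filter on low values that left 11939 genes for testing. Eif4ebp3 is therefore described here without a test, and tests are given for the other 7.

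Livers of male C57BL/6J mice were profiled by RNA sequencing in 23 libraries. Before sampling, the animals spent 4 months on chow or on HFD, a high-fat diet, and antibody treatment at 10 mg/kg lasted 3 weeks. The GCGR antibody is REGN1193, and REGN496 was taken as the isotype control by elimination, since the labels carry its code and the design text only its kind. The groups are control antibody on chow (5 libraries, numbered 1 to 5), GCGR antibody on chow (6, numbered 6 to 11), control antibody on HFD (6, numbered 12 to 17) and GCGR antibody on HFD (6, numbered 18 to 23). No allele, transgene or Cre driver is named for any group. The labels do not say that each library came from its own mouse, or how often the antibody was given, so the p-values only reflect how far these samples spread.

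Cap-dependent translation starts when eIF4E, the cap-binding protein, joins the scaffold eIF4G. The 4E-BPs hold eIF4E away from eIF4G until the kinase complex mTORC1 phosphorylates them and they let go. Upstream, Ddit4 (also called REDD1) restrains mTORC1 through the TSC complex, and the sestrins restrain it through the GATOR complexes, with sestrin 2 serving as a leucine sensor. In liver, insulin and amino acids raise mTORC1 activity, and fasting and glucagon oppose it.

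Values are RPKM, which scale reads to gene length and library size, so levels of different genes are comparable per length, as far as their reads could be assigned. Relative depth of the libraries, read from the steps between low values, ranged from 0.861 to 1.14. The 8 hepatocyte markers were all among the tested genes, with a summed RPKM between 55526 and 75010 over the 23 libraries. The summed RPKM of 4 skeletal muscle markers reached 92.0 in GCGR antibody on chow, where the median was 0.0497. In the other groups the sum was at most 0.126. Library 20, of GCGR antibody on HFD, had the lowest mean correlation with its own group (0.9789) and stands apart in the results on Ddit4. Tests are limma's on log2(RPKM + 1), two-sided and adjusted over the 11939 genes by Benjamini-Hochberg. A gene is called at an adjusted p under 0.05. Fold changes are log2 differences on that scale, where low genes appear to change less than they do, with the SE after ±.

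Eif4ebp3 was higher in every library of GCGR antibody than in every control library of the same diet. Eif4ebp3 (gene ID 108112, chromosome 18, 36664060 to 36666324, plus strand of GRCm38.p6) encodes the third of the repressors, and 66.3% of the 33-base windows of its transcript also lie in a read-through model with its neighbour Ankhd1. In libraries 1 to 5, control antibody on chow, its RPKM were 10.9, 15.1, 15.9, 12.8 and 16.2. With GCGR antibody on chow the lowest was 16.9, the median 37.9 and the highest 47.3. The groups did not overlap, but the lowest treated library, 9, lay just above the highest control. Mean RPKM were 14.2 ± 2.26 in controls and 35.9 ± 11.1 in treated livers (SD, n = 5 and 6), with a ratio of 2.54 and a log2 fold change of 1.23 ± 0.31.

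On HFD the control libraries lay close together, with a lowest Eif4ebp3 of 6.44, a median of 7.03 and a highest of 7.98 RPKM. With GCGR antibody the lowest was 13.9, the median 31.0 and the highest 57.6 RPKM. Every treated library lay above every control. Within the treated group libraries 19, 20 and 21 stood at 45.5, 57.6 and 51.7 RPKM and libraries 18, 22 and 23 at 13.9, 15.7 and 16.5, with none in between. Mean RPKM were 7.07 ± 0.541 in controls and 33.5 ± 20.2 in treated livers (SD, n = 6 each), with a ratio of 4.73 and a log2 fold change of 1.86 ± 0.30. Without libraries 19 and 20 it was 1.44, and over the 21 alternative settings it ran from 1.44 to 2.05. The log2 fold change on HFD exceeded that on chow by 0.63 ± 0.43, and by 0.21 without libraries 19 and 20.

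The order of Eif4ebp3 means was control on HFD, control on chow, GCGR antibody on HFD, GCGR antibody on chow. The control groups did not overlap each other, since the highest HFD control (7.98 RPKM) lay below the lowest chow control (10.9). Their ratio of means was 0.499 and the log2 fold change -0.90 ± 0.31 for HFD against chow. The treated groups overlapped, with a ratio of 0.932 and a log2 fold change of -0.27 ± 0.30. That value moved with single libraries, from -0.07 without library 18 to -0.47 without library 20. Within that range it was nearer 0 without library 11, 22 or 23 and farther from 0 without library 9, 19 or 21, each by over 1.5 times. It was -0.69 without libraries 19 and 20 together. The diet contrast under control antibody and the antibody contrast on HFD share the 6 HFD control libraries, so these values are not independent of each other.

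**Figure D1:**
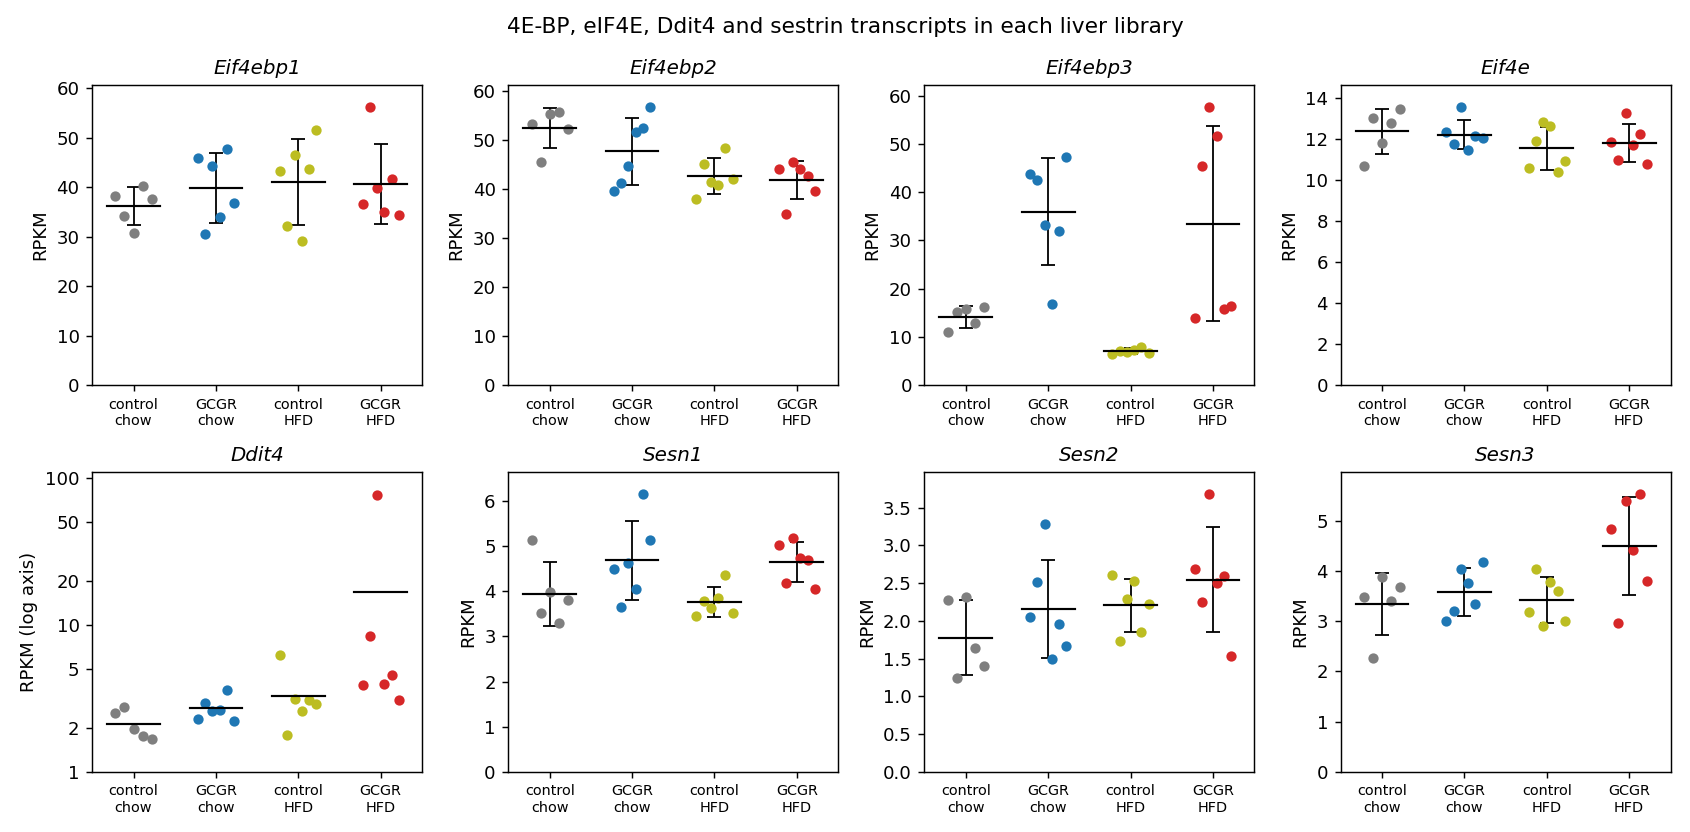
RPKM of the 8 genes in each liver library, with each point 1 library, the horizontal line the group mean and the bar ± SD (no bar in the Ddit4 panel, whose axis is logarithmic). Eif4ebp3 lies higher in both GCGR antibody groups, the HFD controls lie between 6.44 and 7.98 RPKM, and 1 library of GCGR antibody on HFD has Ddit4 at 76.0 RPKM.

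Among all tested genes the groups did not overlap in 2.5% for the antibody on chow, 2.85% for the antibody on HFD, 15.9% for diet under control antibody and 10.3% for diet under GCGR antibody. Of the 8 genes here, 1 was free of overlap in each of the first 3 contrasts and 0 in the last, and that 1 was Eif4ebp3 each time. Since Eif4ebp3 was picked for its rise, nothing is read from that count.

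Eif4ebp1 and Eif4ebp2 had higher mean RPKM over the 23 libraries (39.6 and 45.9) than Eif4ebp3, and neither was called with the antibody on either diet. Eif4ebp1 (gene ID 13685, chromosome 8, 27260327 to 27275656, plus strand) is the best characterised mTORC1 substrate of the family. Its RPKM were 38.1, 34.2, 30.7, 40.3 and 37.6 in the chow controls and 30.5, 40.7 and 47.7 (lowest, median, highest) with GCGR antibody on chow. On HFD they were 29.1, 43.6 and 51.6 with control and 34.3, 38.3 and 56.2 with GCGR antibody. All 4 groups overlapped. The antibody effect was 0.12 ± 0.15 on chow (limma adjusted p = 0.822) and -0.01 ± 0.14 on HFD (adjusted p = 0.976), and the diet effects were 0.16 ± 0.15 and 0.02 ± 0.14 under control and GCGR antibody (adjusted p = 0.437 and 0.915).

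Eif4ebp2 (gene ID 13688, chromosome 10, 61428491 to 61452790, minus strand) encodes the 4E-BP best known from brain. The chow controls had 53.2, 45.5, 55.4, 55.8 and 52.3 RPKM. The HFD controls ranged from 38.0 to 48.5 RPKM with a median of 41.8, so 6 of 6 lay below the chow control median, while the ranges overlapped. Under control antibody it fell by diet, with means of 52.5 ± 4.14 and 42.7 ± 3.63 RPKM (SD, n = 5 and 6). The log2 fold change was -0.29 ± 0.09 with a limma adjusted p of 0.0175. It was called in all 20 alternative settings, at adjusted p from 0.00323 to 0.0479. Beside this, 29.9% of all tested genes were called in the diet contrast under control antibody, of which 1390 were higher and 2183 lower, and 1 of the 7 tested genes here was, lower.

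Under GCGR antibody the diet effect on Eif4ebp2 was -0.18 ± 0.09 (adjusted p = 0.113). Lowest, median and highest RPKM were 39.6, 48.2 and 56.8 on chow and 35.0, 43.3 and 45.5 on HFD, with all 6 HFD libraries below the chow median. The antibody effects were -0.14 ± 0.09 on chow (adjusted p = 0.623) and -0.03 ± 0.09 on HFD (adjusted p = 0.860). The difference between the antibody effects was 0.11 ± 0.12 (adjusted p = 0.798). Of the 5 contrasts, Eif4ebp2 passed the diet contrast under control antibody alone at the settings used here. Its diet effect under GCGR antibody was called in 1 of 21 alternatives, without library 6 (-0.23 ± 0.08, adjusted p = 0.0428).

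Eif4e (gene ID 13684, chromosome 3, 138526191 to 138559696, plus strand), the cap-binding partner of all 3 repressors, was the steadiest of the 8 transcripts. Its highest library was 1.30 times its lowest over all 23. The chow controls had 10.7, 13.05, 11.8, 12.8 and 13.5 RPKM. Lowest, median and highest were 11.5, 12.1 and 13.6 with GCGR antibody on chow, 10.4, 11.4 and 12.8 with control on HFD, and 10.8, 11.8 and 13.3 with GCGR antibody on HFD. No contrast was called, with antibody effects of -0.01 ± 0.07 on chow (adjusted p = 0.967) and 0.03 ± 0.06 on HFD (adjusted p = 0.803). Of 33-base windows of the Eif4e transcripts in the GENCODE M21 annotation, 8.36% also occur in another gene, most of them in Gm7327, so a part of its reads could have been split by the counting.

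Summed 4E-BP transcripts relative to Eif4e followed Eif4ebp3. The sum of the 3 4E-BP RPKM was 8.37 ± 0.855 times that of Eif4e with control antibody on chow (n = 5) and 10.1 ± 1.09 times with GCGR antibody (n = 6). On HFD it was 7.96 ± 1.33 and 9.83 ± 1.89 times (SD, n = 6 each). Taking Eif4ebp1 and Eif4ebp2 alone, the ratio was 7.23 ± 0.912, 7.19 ± 0.798, 7.34 ± 1.28 and 7.01 ± 0.662 in the same order, with differences below the SD. Eif4ebp3 made up 13.8 ± 2.43% of the summed 4E-BP RPKM in chow controls and 28.7 ± 7.68% with GCGR antibody, and 7.84 ± 0.985% and 26.9 ± 12.1% on HFD. In library 20 its share was the highest of all, 40.3%. These ratios contain Eif4ebp3 and are descriptions of transcripts, with no measure of protein or phosphorylation. Of its 33-base windows 66.3% also lie in another gene model, against 5.33% for Eif4ebp1 and 0.0346% for Eif4ebp2. How such reads were counted is not known, so its share and the ratios could be off.

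**Figure D2:**
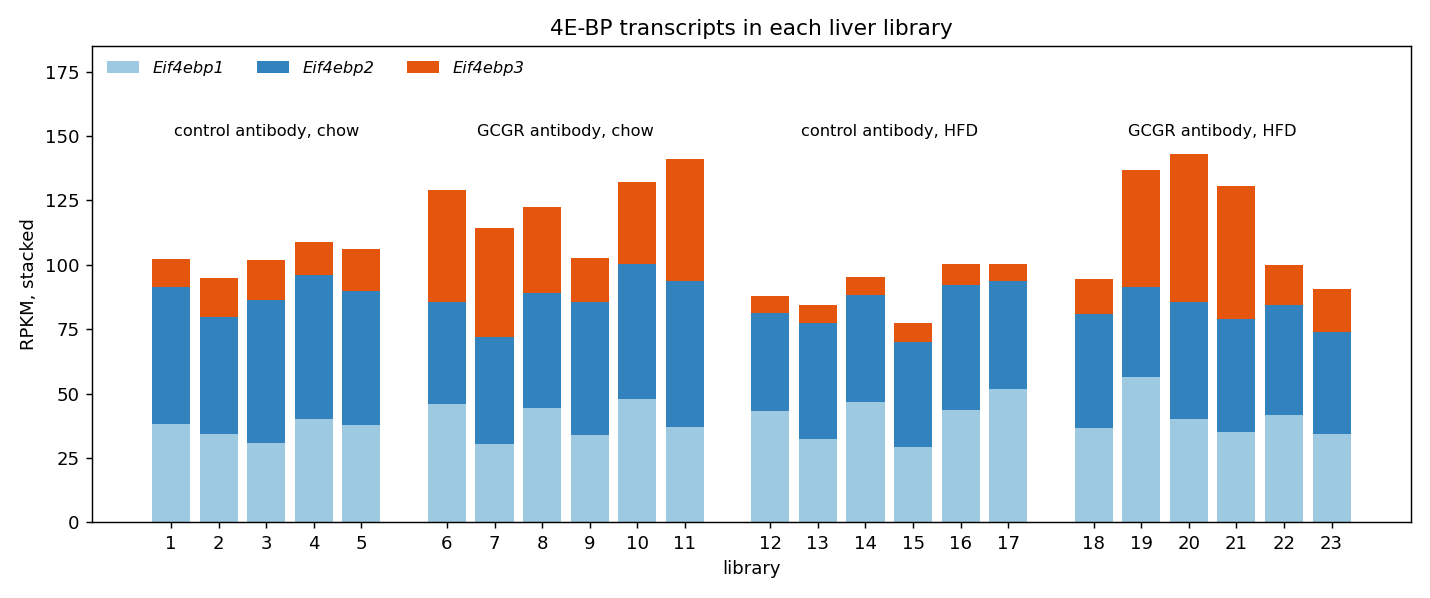
Stacked RPKM of Eif4ebp1, Eif4ebp2 and Eif4ebp3 in each of the 23 libraries, grouped by antibody and diet. The Eif4ebp3 layer runs from 6.44 to 7.98 RPKM in HFD controls and from 13.9 to 57.6 RPKM with GCGR antibody on HFD, while neither of the other genes was called with the antibody.

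Ddit4 (gene ID 74747, chromosome 10, 59949675 to 59951770, minus strand) is a stress-inducible transcript that responds to glucocorticoids, hypoxia and DNA damage. Its RPKM were 2.50, 2.75, 1.95, 1.76 and 1.68 in the chow controls. They were 2.23, 2.61 and 3.59 (lowest, median, highest) with GCGR antibody on chow, 1.79, 3.00 and 6.20 with control on HFD, and 3.08, 4.27 and 76.0 with GCGR antibody on HFD. The top value belongs to library 20 and the next, 8.36, to library 19. All 6 libraries of GCGR antibody on HFD lay above the median of either group they are compared with, and they overlapped both.

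The diet effect on Ddit4 under GCGR antibody was 1.22 ± 0.46, with a limma adjusted p of 0.0485, and it was called as a rise. Leaving out library 20 lowered it to 0.59 ± 0.20, still called at an adjusted p of 0.0265. Without both library 19 and library 20 it was 0.40 ± 0.18 and not called (adjusted p = 0.102). Over 21 alternative settings 10 called it. Of all tested genes 29.8% were called in this contrast, and of the 7 tested genes here 1, Ddit4.

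With the antibody Ddit4 was not called on either diet. On chow the effect was 0.25 ± 0.48 (adjusted p = 0.912), with 6 of 6 treated libraries above the control median. On HFD it was 1.06 ± 0.46 (adjusted p = 0.158), again 6 of 6, and 0.43 ± 0.20 without library 20 (adjusted p = 0.210). The difference between these effects was 0.82 ± 0.67 (adjusted p = 0.725) and -0.01 without libraries 19 and 20. The diet effect under control antibody was 0.40 ± 0.48 (adjusted p = 0.558).

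The sestrins were low in these livers, and none was called in any contrast at the settings used here, while Sesn3 was called under some alternatives. Summed over the 3 genes, sestrin RPKM were 9.06 ± 1.52 in chow controls, 10.4 ± 1.17 with GCGR antibody on chow, 9.39 ± 0.564 in HFD controls and 11.7 ± 1.96 with GCGR antibody on HFD (SD, n = 5, 6, 6 and 6). Treated and control libraries overlapped on both diets, with the highest controls at 10.9 and 10.2 and the lowest treated libraries at 9.31 and 9.40.

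Sesn1 (gene ID 140742, chromosome 10, 41810574 to 41908436, plus strand) is a known target of p53 and FOXO factors. The chow controls had 5.13, 3.51, 3.99, 3.29 and 3.81 RPKM. Lowest, median and highest were 3.66, 4.56 and 6.16 with GCGR antibody on chow, 3.45, 3.71 and 4.36 with control on HFD, and 4.05, 4.71 and 5.19 with GCGR antibody on HFD. On HFD 6 of 6 treated libraries lay above the control median, and of the controls only library 16, at 4.36, reached into the treated range. The antibody effect was 0.24 ± 0.09 on HFD (unadjusted p = 0.0147, limma adjusted p = 0.110) and 0.20 ± 0.10 on chow (adjusted p = 0.463). Neither passed, and the effects differed by 0.04 ± 0.13 (adjusted p = 0.939). By diet the differences were -0.04 ± 0.10 under control and 0.00 ± 0.09 under GCGR antibody (adjusted p = 0.764 and 0.998).

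Sesn3 (gene ID 75747, chromosome 9, 14276301 to 14326134, plus strand) is a known FOXO target in liver. Its RPKM were 3.48, 2.28, 3.88, 3.40 and 3.68 in the chow controls and 3.00, 3.56 and 4.19 (lowest, median, highest) with GCGR antibody on chow. On HFD they were 2.90, 3.39 and 4.04 with control and 2.97, 4.63 and 5.54 with GCGR antibody, where 5 of 6 lay above the control median and library 19 held the low value. The antibody effect on HFD was 0.30 ± 0.11 (unadjusted p = 0.0144, adjusted p = 0.108). It was not called, but 3 of 21 alternatives called it: without library 19 it was 0.39 ± 0.10 (adjusted p = 0.0164), without libraries 19 and 20 it was 0.35 ± 0.11 (adjusted p = 0.0426), and with array weights 0.37 ± 0.10 (adjusted p = 0.0154). On chow the effect was 0.09 ± 0.12 (adjusted p = 0.856), and the difference between diets was 0.21 ± 0.16 (adjusted p = 0.709). By diet it differed by 0.03 ± 0.12 under control antibody (adjusted p = 0.867) and 0.25 ± 0.11 under GCGR antibody (unadjusted p = 0.0414, adjusted p = 0.106), where 5 of 6 HFD libraries lay above the chow median. The latter was called in 2 of 21 alternatives, without library 19 (0.33 ± 0.10, adjusted p = 0.0209) and with array weights (0.29 ± 0.10, adjusted p = 0.0275).

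Sesn2 (gene ID 230784, chromosome 4, 132492804 to 132510456, minus strand), the leucine sensor and a known ATF4 target, had the lowest mean of the 8 transcripts over the 23 libraries. The chow controls had 2.28, 1.24, 2.32, 1.64 and 1.40 RPKM, and the highest value of any library was 3.68, in library 20. Its antibody effects were 0.18 ± 0.14 on chow (adjusted p = 0.713) and 0.13 ± 0.14 on HFD (adjusted p = 0.597). The diet effects were 0.22 ± 0.14 and 0.17 ± 0.14 under control and GCGR antibody (adjusted p = 0.266 and 0.380). All groups overlapped in every contrast.

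**Figure D3:**
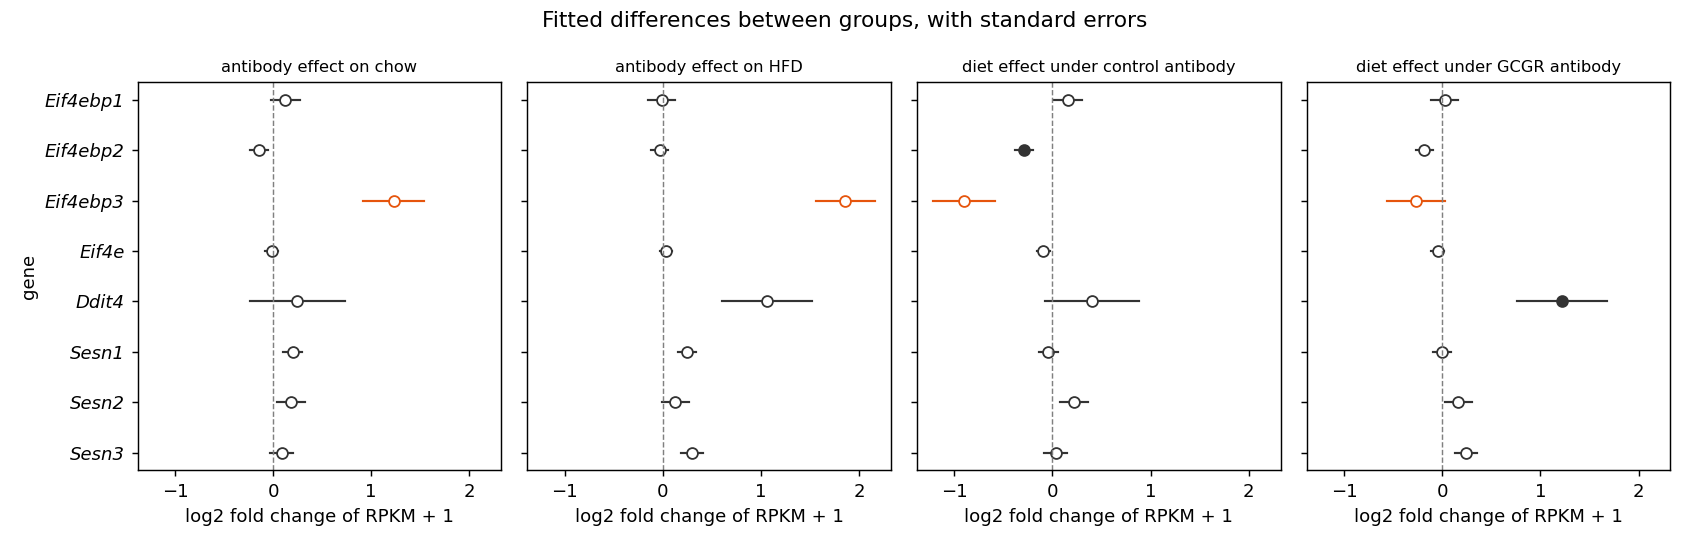
Log2 fold change of RPKM + 1 for the 8 genes in 4 contrasts, with bars of ± SE, filled circles for called genes and Eif4ebp3, which was not tested, in orange. The filled circles are Eif4ebp2 for diet under control antibody (-0.29) and Ddit4 for diet under GCGR antibody (1.22), and the orange circles for the antibody lie at 1.23 and 1.86.

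Over the 7 tested genes, limma called 0 with the antibody on chow, where 0.946% of all genes were called, and 0 had an unadjusted p under 0.05. With the antibody on HFD it called 0, against 7.45% of all genes, and 3 (Ddit4, Sesn1 and Sesn3) had an unadjusted p under 0.05. For the difference between the antibody effects it called 0, against 0.201% of all genes, and 0 had an unadjusted p under 0.05. The median log2 fold change of the 7 was 0.12 on chow and 0.13 on HFD for the antibody, beside 0.03 and 0.05 over all tested genes. For diet it was 0.03 and 0.02 under control and GCGR antibody, beside -0.03 and -0.02.

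Short promoter motifs were looked up for the members, since Sesn1 and Sesn3 are FOXO targets and Sesn2 and Ddit4 ATF4 targets by background knowledge. The RefSeq windows of GRCm38.p6 run from 250 bases before to 50 after a start, and 8 windows matched 6 members (Eif4ebp2, Eif4e, Ddit4, Sesn1, Sesn2 and Sesn3). Both strands were searched. The FOXO motif TGTTTAC stood in 1 member window (Sesn1) and in 3.65% of all 32851 windows, and the E-box CACGTG in 1 (Eif4e, at 2 places) and in 7.15%. The ATF4 element TGATGNAAN, the cAMP element TGACGTCA and the glucocorticoid response element (a palindrome with a spacer) stood in 0 of the 8, beside 3.95%, 1.79% and 0.475% of all windows. The 3 matches are printed with the motif in capitals to show where it lies, and a match is a description of letters only.
Sesn1, chr10:41810586-41810602, plus strand, 22 bases after the start: aaccttctacTGTTTAC
Eif4e, chr3:138527030-138527055, plus strand, 228 bases before a start: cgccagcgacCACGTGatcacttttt
Eif4e, chr3:138527194-138527219, plus strand, 64 bases before a start: acacgtccgtCACGTGggcaggagcc

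Of 14 genes of the cap-binding complex and its helpers, 0 were called with the antibody on chow and 1 on HFD, beside 0.946% and 7.45% of all genes. The median log2 fold change was 0.03 and 0.09, beside 0.03 and 0.05 over all genes. The 1 was Eif4e3, an eIF4E relative, which rose on HFD without overlap, at 2.07 ± 0.552 RPKM in controls and 6.28 ± 2.06 in treated livers (1.22 ± 0.19, limma adjusted p = 2.21e-04, n = 6 and 6). With diet under control antibody 1 of the 14 rose and 5 fell, beside 29.9% of all genes called. Mknk2, a kinase that phosphorylates eIF4E, rose by 0.81 ± 0.19 (adjusted p = 0.00279), Eif4b changed by -0.36 ± 0.06 (adjusted p = 1.30e-04) and the helicase gene Eif4a2 by -0.48 ± 0.11 (adjusted p = 0.00266). Under GCGR antibody 3 rose and 5 fell, among them Mknk2 (0.86 ± 0.18, adjusted p = 0.00110), Eif4e3 (0.85 ± 0.19, adjusted p = 0.00162) and the poly(A)-binding protein gene Pabpc1 (-0.22 ± 0.05, adjusted p = 0.00241).

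Among 10 subunits of mTORC1 and mTORC2, 0 were called with the antibody on chow and 1 on HFD, beside 0.946% and 7.45% of all genes, with medians of 0.04 and 0.03. The 1 was Deptor, an inhibitory subunit of both complexes, which rose from 31.2 ± 2.91 to 37.8 ± 1.05 RPKM on HFD (0.27 ± 0.06, adjusted p = 0.0127). By diet Deptor fell under control antibody (-0.32 ± 0.07, adjusted p = 0.00156) and under GCGR antibody (-0.18 ± 0.06, adjusted p = 0.0444). Rictor, the scaffold of mTORC2, fell by diet under both antibodies (-0.43 ± 0.11 and -0.41 ± 0.10, adjusted p = 0.00467 and 0.00409). Akt1s1, the mTORC1 inhibitor PRAS40, rose by diet under control antibody (0.34 ± 0.08, adjusted p = 0.00276).

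Of 12 tested genes of the TSC, RHEB and AMPK branch, through which Ddit4 acts, 0 were called with the antibody on chow and 3 rose on HFD. Of all genes 0.946% and 7.45% were called. The list medians were 0.02 and 0.11, beside 0.03 and 0.05 over all genes. The 3 were the AMPK catalytic subunits Prkaa2 (0.33 ± 0.08, adjusted p = 0.0190) and Prkaa1 (0.23 ± 0.06, adjusted p = 0.0213) and the mTORC1 activator Rheb (0.21 ± 0.06, adjusted p = 0.0365). Both AMPK subunits fell by diet under control antibody, Prkaa1 by -0.45 ± 0.06 and Prkaa2 by -0.43 ± 0.09 (adjusted p = 3.42e-05 and 0.00120). Those 2 contrasts share the HFD controls. Under GCGR antibody Prkaa1 also fell by diet (-0.30 ± 0.06, adjusted p = 9.39e-04), while Prkaa2 was not called. Prkag2, a regulatory AMPK subunit, rose by diet under both antibodies (0.20 ± 0.06 and 0.33 ± 0.06, adjusted p = 0.0219 and 4.37e-04).

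On the amino acid branch, through which the sestrins act, 1 of 14 tested GATOR, KICSTOR and CASTOR genes was called with the antibody on chow and 0 on HFD. Of all genes 0.946% and 7.45% were called. The list medians were 0.06 and 0.03, beside 0.03 and 0.05 over all genes. The 1 called on chow was Gatsl2 (CASTOR2, a relative of the arginine sensor CASTOR1), which rose, at 0.861 ± 0.103 and 1.34 ± 0.121 RPKM (0.33 ± 0.08, adjusted p = 0.0463). With diet 1 rose and 5 fell under control antibody, and 0 rose and 5 fell under GCGR antibody, with medians of -0.10 and -0.13 beside -0.03 and -0.02 over all genes. Mios, a GATOR2 subunit, fell under control antibody (-0.34 ± 0.07, adjusted p = 0.00176), and Gatsl2 fell under GCGR antibody (-0.29 ± 0.08, adjusted p = 0.00620). Of 15 tested RAG, Ragulator and folliculin genes 0 were called with the antibody on chow and 1, the lysosomal arginine transporter Slc38a9 (0.22 ± 0.06, adjusted p = 0.0257), on HFD. With diet 3 rose and 0 fell under control antibody, and 2 rose and 1 fell under GCGR antibody, with Rragc and Lamtor4 higher in both. The diet counts of both lists stand beside 29.9% and 29.8% of all genes called.

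Of 11 S6 kinase genes and other mTORC1 substrates 0 were called with the antibody on either diet, beside 0.946% of all genes on chow and 7.45% on HFD. With diet under control antibody 0 rose and 4 fell, with a median of -0.14, and under GCGR antibody 1 rose and 4 fell, with a median of -0.15. Rps6kb1, the S6 kinase, fell by -0.28 ± 0.08 and -0.34 ± 0.07 (adjusted p = 0.0101 and 0.00165), Larp1, a repressor of ribosomal protein mRNAs, by -0.27 ± 0.07 and -0.33 ± 0.06 (adjusted p = 0.00455 and 4.42e-04), and the elongation factor Eef2 by -0.34 ± 0.07 and -0.29 ± 0.07 (adjusted p = 0.00133 and 0.00264). These counts stand beside 29.9% and 29.8% of all genes called in the diet contrasts.

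Lists of transcription factor programmes known to act on these genes were counted too. For the antibody, 0.946% of all genes were called on chow and 7.45% on HFD, with medians of 0.03 and 0.05. Of 15 tested ATF4 genes 1 fell with the antibody on chow (Cth, from 282 ± 40.4 to 134 ± 16.1 RPKM), and on HFD 1 rose (Eif2ak2) and 1 fell (Atf5, from 245 ± 44.1 to 123 ± 35.1 RPKM). Of 12 FOXO genes 0 were called on chow and 1 on HFD, Foxo1 itself (0.32 ± 0.10, adjusted p = 0.0493), with medians of -0.08 and 0.16. Of 12 p53 genes and of 12 glucocorticoid genes 0 were called with the antibody on either diet. Their medians were 0.12 and -0.14 on chow and 0.15 and 0.23 on HFD. For diet under GCGR antibody, where Ddit4 was called, all 4 lists had members called, beside 29.8% of all genes. Of the 12 glucocorticoid genes 3 rose and 0 fell: Per1 (1.52 ± 0.27, adjusted p = 2.19e-04), Tsc22d3 (1.14 ± 0.22, adjusted p = 4.59e-04) and Cebpd (0.58 ± 0.21, adjusted p = 0.0395). Their spread on HFD was wide, at 6.05 ± 4.09, 42.6 ± 19.3 and 2.57 ± 1.97 RPKM (SD, n = 6). Cebpd overlapped between the diets, while Per1 and Tsc22d3 did not. Of the 12 FOXO genes 4 rose and 1 fell, among them Bnip3 (0.62 ± 0.12, adjusted p = 5.15e-04) and Foxo1 (0.51 ± 0.10, adjusted p = 5.66e-04). Of the 15 ATF4 genes 2 rose and 1 fell, and of the 12 p53 genes 1 rose and 1 fell. The medians were 0.37 for the glucocorticoid, 0.33 for the FOXO, -0.0021 for the ATF4 and 0.15 for the p53 genes, beside -0.02 over all genes. For diet under control antibody, where Ddit4 was not called, all 4 lists also had members called, beside 29.9% of all genes. There 1 glucocorticoid gene (Per1) rose and 0 fell, and 1 FOXO gene (Bnip3) rose and 2 fell. Of the ATF4 genes 4 rose and 3 fell, and of the p53 genes 2 rose and 2 fell. The medians in the same order were -0.09, 0.02, -0.0049 and 0.16, beside -0.03.

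Some T and NK cell, hepatocyte and endothelial markers were called with the antibody on HFD, where Eif4ebp3 was also higher. Of other tested markers, 0 of 7 Kupffer cell and macrophage, 0 of 2 B cell, 0 of 3 bile duct, 0 of 2 adipocyte and 0 of 1 pancreas markers were called. Of 7 T and NK cell markers 5 were tested and 4 (Cd3g, Ptprc, Ccl5 and Il2rb) rose with the antibody on HFD, beside 7.45% of all tested genes called. The summed RPKM of the 7 ranged from 4.17 to 5.71 in HFD controls and from 4.29 to 20.02 with GCGR antibody on HFD, and from 3.65 to 5.06 and 4.13 to 6.73 in the chow groups, with no marker at 0 in all libraries of a group. Hepatocyte markers were lower: their summed RPKM ran from 63775 to 75010 in HFD controls and from 56307 to 62425 with GCGR antibody on HFD, without overlap. Of these 8 markers 0 rose and 1, Alb, fell, with a list median of -0.17. Of 6 endothelial markers 1, Lyve1, rose, with summed RPKM of 32.2 to 47.1 and 34.7 to 57.1. Of 7 stellate cell markers 0 were called, with sums of 80.7 to 133 and 77.6 to 180. On chow 0 of the stellate markers were called with the antibody, while their sums did not overlap (73.7 to 80.4 in controls and 83.6 to 89.6 with GCGR antibody). Among single tested genes, the groups did not overlap in 2.5% on chow and 2.85% on HFD for the antibody.

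Some markers were also called with diet under GCGR antibody, the contrast in which Ddit4 was called. Its counts stand beside 29.8% of all tested genes called. Of the 7 stellate markers 4 rose (Col1a1, Col1a2, Col3a1 and Dcn), with sums of 83.6 to 89.6 RPKM on chow and 77.6 to 180 on HFD. Of 7 Kupffer cell and macrophage markers 3 fell (Clec4f, Csf1r and Vsig4), with sums of 80.7 to 116 and 47.7 to 87.04 RPKM. Of the 5 tested T and NK cell markers 2 rose (Cd3g and Ccl5), and of the 6 endothelial markers 1 rose (Lyve1) and 2 fell (Kdr and Cdh5). Of the 8 hepatocyte markers 1, Cps1, fell. Of 2 tested adipocyte markers 1, Fabp4, rose, and of 3 tested bile duct markers 1, Sox9, fell. With diet under control antibody, where Eif4ebp2 was called, 29.9% of all tested genes were called. There 1 hepatocyte marker rose (Ttr) and 3 fell (Apob, Cps1 and Hnf4a). Both tested adipocyte markers (Cidec and Fabp4) and 1 endothelial marker (Lyve1) rose, and no marker of the other cell types was called. The part of such cells in the 4E-BP, Ddit4 and sestrin values was not tested, and in whole liver fewer cells of a type and less RNA per cell cannot be told apart.

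Eif4ebp3 lies between Ankhd1 and Sra1, and its transcript overlaps a read-through model. In GENCODE M21 the read-through AC115631.1 (chromosome 18, 36647860 to 36665917, plus strand) joins Ankhd1 to Eif4ebp3 and shares 472 of the 712 33-base windows (66.3%) of the Eif4ebp3 transcript, 33 being the read length. Reads there cannot be assigned to 1 of the 2 models. Mean Ankhd1 was 5.90 ± 0.348 (control) and 5.86 ± 0.279 RPKM (GCGR antibody) on chow. On HFD it was 4.95 ± 0.426 and 5.35 ± 0.501 RPKM (SD, n = 5, 6, 6 and 6). Its antibody effects were -0.01 ± 0.06 and 0.09 ± 0.06 (limma adjusted p = 0.982 and 0.315), and it fell by diet under control antibody (-0.21 ± 0.06, adjusted p = 0.00964). Over the neighbour on the other side, Sra1, the antibody effects were 0.10 ± 0.06 on chow (adjusted p = 0.570) and 0.15 ± 0.05 on HFD (adjusted p = 0.0865). Apbb3, next to Sra1, had 0.07 ± 0.18 and 0.53 ± 0.17 (adjusted p = 0.934 and 0.0591), with library 20 at 14.3 RPKM and the rest of its group between 4.62 and 7.07. All 3 neighbours had smaller fitted antibody effects than Eif4ebp3 on both diets. Since Eif4ebp3 was picked for its rise, nothing is read from that order, and a part of the read-through model was not tested.

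**Figure D4:**
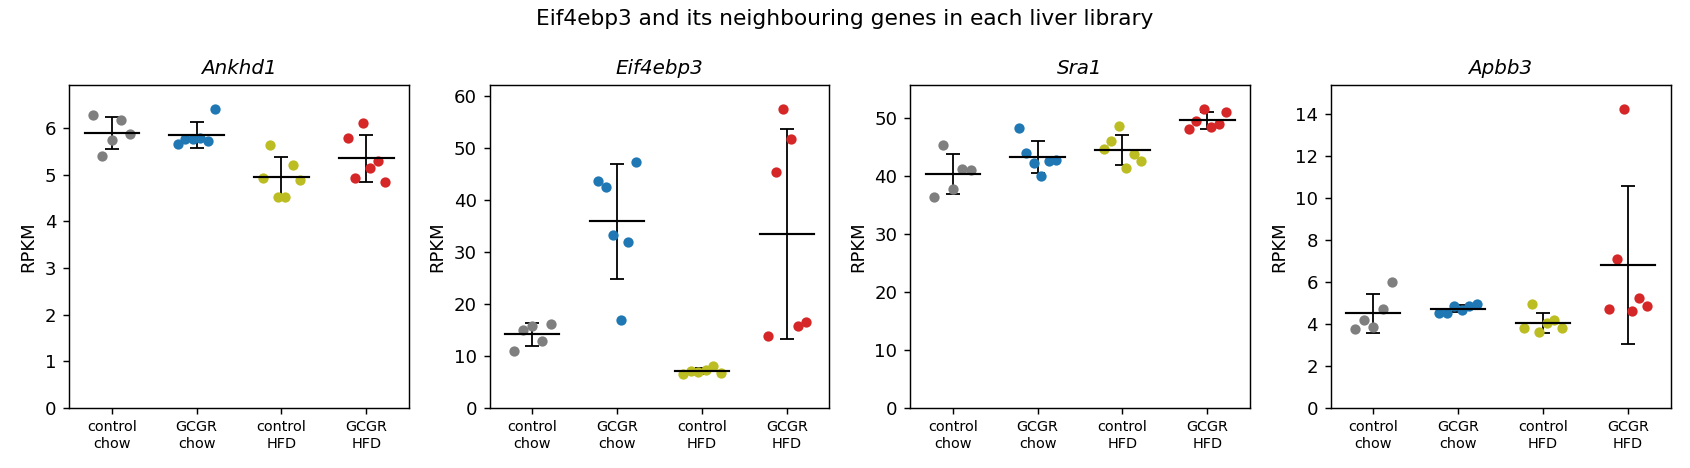
RPKM of Ankhd1, Eif4ebp3, Sra1 and Apbb3 in each library in their order along the chromosome, with points for libraries, lines for means and bars for ± SD. Ankhd1 stays between 4.52 and 6.42 RPKM in all 23 libraries, while Eif4ebp3 spans 6.44 to 57.6.

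The genes most like Eif4ebp3 within groups were found from deviations of log2(RPKM + 1) from the group means over 23 libraries. The closest was Lpin1, a phosphatidate phosphatase and mTORC1 substrate, with r = 0.768 (rho = 0.718, and r = 0.648 without libraries 19 and 20). Next among named genes were Man1c1, a mannosidase (0.715), Sds, the serine dehydratase of gluconeogenic amino acid breakdown (0.696), Arpin, an inhibitor of the Arp complex (0.686), and Myo1f, a myosin (0.677). Man1c1 and Myo1f lie near 0.5 RPKM in chow controls. Across the 11938 other tested genes r ran from -0.371 at the 5th percentile to 0.402 at the 95th. These values are descriptions: libraries share their depth and preparation, and the largest of so many values is high by selection.

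Across groups these 5 genes differed from one another in direction. Mean Lpin1 on chow was 7.68 ± 1.67 RPKM (control) and 7.75 ± 2.68 (GCGR antibody), and on HFD 19.5 ± 8.07 and 34.6 ± 43.6. Its antibody effects were -0.02 ± 0.48 and 0.18 ± 0.46 (adjusted p = 0.995 and 0.844). Sds fell with the antibody on HFD, from 97.3 ± 14.5 to 38.2 ± 29.0 RPKM (-1.53 ± 0.27, adjusted p = 9.27e-04), opposite to the direction of Eif4ebp3. On chow it went from 86.1 ± 26.2 to 38.3 ± 9.06 RPKM (-1.13 ± 0.28, adjusted p = 0.0566). The other 3 were not called with the antibody on either diet. Fitted effects of Myo1f were 0.13 ± 0.10 (chow, adjusted p = 0.710) and 0.29 ± 0.10 (HFD, adjusted p = 0.0682), and those of Man1c1 0.05 ± 0.05 on both diets (adjusted p = 0.797 and 0.6002), with the sign of Eif4ebp3. Arpin had -0.13 ± 0.11 and 0.20 ± 0.11 (adjusted p = 0.737 and 0.263).

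Among the 8 genes themselves, the highest within-group correlation was 0.699, between Eif4ebp2 and Sesn3, followed by 0.549 between Eif4ebp2 and Sesn1 (0.682 and 0.529 without library 20). Eif4ebp3 and Ddit4 had r = 0.478 with all libraries and 0.182 without library 20, and Ddit4 and Sesn2 had 0.480 and 0.253. The lowest with all libraries was -0.395, between Eif4ebp1 and Sesn3 (-0.412 without library 20). Several values of Ddit4 changed sign without library 20. They went from 0.0760 to -0.513 with Sesn3, from 0.0306 to -0.419 with Eif4ebp2 and from 0.225 to -0.325 with Eif4e. With Eif4ebp1 the value of Ddit4 went from 0.195 to 0.504. Each value with all libraries rests on 23 libraries of 4 groups.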

How the data were processed

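The authors deposited 1 table of RPKM per gene and library, which holds no counts. Per the labels' protocols, libraries were strand-specific KAPA mRNA-Seq, amplified in 12 PCR cycles and read for 33 cycles from 1 end. The submitters' processing notes name bcl2fastq 2.17, FastQC and the build GRCm38. Aligner, counting tool and gene models: not given in the sources used here.

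Tests were run in limma 3.58.1 (R 4.3.3) on log2(RPKM + 1), with 4 group means, a mean-variance trend and genes of at least 0.5 RPKM in at least 5 libraries. The script was tested on simulated data. Of 1524 low genes used for relative depth, 80.5% of values lay within 0.1 of a whole step. Absolute depth is unknown, so no counting intervals are given. Positions and promoters are from RefSeq and transcript windows from GENCODE.

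The members, the 10 pathway lists and the 10 marker lists were chosen with earlier results of these data known. Named genes were the members, up to 3 called genes per pathway list and contrast with the smallest adjusted p, the 5 genes most correlated with Eif4ebp3 within groups (predicted genes passed over) and its neighbours. Some genes that this rule names are not reported here. Apbb3 and the markers were named after their values were seen. Alternatives were other pseudocounts, filters, scaling, weights and left-out libraries.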

Additional observations from a re-analysis of the deposited data

Results flagged for a closer look

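A gap test on single libraries was run on each member in each group of 5 or 6 libraries, 32 in all, of which chance flags about 1 in 20, or 1.6 here. It marked 3. Eif4ebp1 in library 19 of GCGR antibody on HFD stood at 56.2 RPKM, where the other 5 libraries lay at or below 41.8. Ddit4 in library 12 of control antibody on HFD stood at 6.20 RPKM, with the other 5 at or below 3.11. Ddit4 in library 20 of GCGR antibody on HFD stood at 76.0 RPKM, with the other 5 at or below 8.36. For 0 of the 7 tested members did the difference between the antibody effects on the diets pass limma's test, and 0 had an unadjusted p under 0.05. The 3 high and 3 low libraries of Eif4ebp3 in GCGR antibody on HFD were not marked, since no single library stood apart.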

How the results depend on the processing

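Of the single-gene values under other settings, 734 kept their direction and side of the threshold, 40 changed sign, 6 became called and 11 lost a call. Every change of sign was in a value not called. They were Sesn1 for diet under GCGR antibody (0.0017 and 0.00061 with pseudocounts of 0.1 and 0.5, 0.0226 with median-ratio scaling, 0.00479 with array weights), Eif4e for the antibody on HFD (-0.0288 with median-ratio scaling) and on chow (4.49e-04 with array weights), Eif4ebp2 for the antibody on HFD (0.0178 with array weights, 1.82e-04 without libraries 19 and 20), Eif4ebp1 for diet under GCGR antibody (-0.0551 and -0.0945 under the same) and Ddit4 for the difference between antibody effects (-0.00662 without libraries 19 and 20). Leaving out 1 library at a time gave ranges that cross 0 for Eif4e with the antibody on HFD (-5.18e-04 to 0.0599) and chow (-0.0609 to 0.0154), Eif4ebp1 with the antibody on HFD (-0.105 to 0.0601) and diet under GCGR antibody (-0.0715 to 0.0787), Eif4ebp2 with the antibody on HFD (-0.0620 to 0.0189), Sesn1 with diet under GCGR (-0.0551 to 0.0687) and control antibody (-0.0927 to 0.0362) and the difference (-0.0365 to 0.113), Sesn2 in the difference (-0.136 to 0.0414), and Sesn3 with the antibody on chow (-0.0116 to 0.132) and diet under control antibody (-0.0670 to 0.0767).

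The count of the 7 tested members called for the antibody on HFD was 0, and 1 (Sesn3) with array weights or without libraries 19 and 20, and 0 to 1 leaving out single libraries. For diet under GCGR antibody it was 1, and 0 without a filter, with the 2 groups fitted alone or without libraries 19 and 20, and 0 to 1 leaving out single libraries. Without Eif4ebp3 the 4E-BP to Eif4e ratio was 7.23 and 7.19 on chow and 7.01 with GCGR antibody on HFD. Of all genes, 889 were called for the antibody on HFD, but 425 with its groups fitted alone, 2033 with array weights, 543 without library 12 and 1603 without library 19. For the antibody on chow 113 were called, and 228 with array weights, and 72, 57, 64 and 72 without libraries 4, 5, 8 and 9. For the difference it was 24, and 8 without a filter, 190 with array weights, 131 without libraries 19 and 20, and 5 to 65 leaving out single libraries. Median-ratio scaling moved the share of higher calls from 71.5% to 43.0% for the antibody on HFD, from 62.5% to 41.2% for the difference and from 38.9% to 49.8% for diet under control antibody. The cause was not tested. No paired analysis was possible because the library numbers 1 to 23 are not shared between groups.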

Other observations

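Library 20 held values of other stress genes that no other library approached. Cdkn1a, the cell cycle inhibitor p21, was at 43.2 RPKM, against a highest other value of 6.66, in library 19. Lpin1 was at 120.9 against 30.6 and Trp53inp1 at 97.2 against 25.5 RPKM. By RPKM + 1, Ddit4 was 8.23 times its next highest library and ranked first of all tested genes on this measure. In library 20, 24 genes lay at least 2-fold above every other library, beside 0 to 9 in each of the others. These genes were picked after their values were seen.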
